A study of Mus musculus with 4 samples.

Results

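Cxcl16 and Cxcr6, a chemokine and its receptor, are 2 of the 27998 genes counted in single cells from mouse melanoma, and were chosen by their symbols. CXCL16 is made both as a membrane-bound protein with a chemokine domain on a mucin stalk, which can tether cells and bind oxidized lipoprotein, and as a soluble chemoattractant released from the membrane by the proteases ADAM10 and ADAM17. Its receptor CXCR6 signals through inhibitory G proteins and is known from effector and tissue-resident T cells, natural killer (NK) cells and innate-like lymphocytes. In tumours the pair is known for positioning CXCR6-positive CD8 T cells near ligand-bearing myeloid and dendritic cells.

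The cells came from tumours of B16-F10, a melanoma line, grown for 14 days in C57BL/6 mice after implantation with matrigel. There were 2 libraries from tumours of Adar1-null B16 cells, here S1 and S2, and 2 libraries from control B16 tumours, here S3 and S4. Adar1 is an enzyme that edits double-stranded RNA, and its loss was in the tumour cells, while the infiltrating cells were those of the host. Suspensions were made with collagenase P and DNase I, and CD45-positive leukocytes were selected with magnetic beads after a density gradient. Droplet-based 10x 3′ v2 libraries count messenger RNA molecules by unique molecular identifiers (UMIs) near the 3′ end. The labels describe 2 tumours per genotype but name no animals, so a p-value measures the spread between these libraries.

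After filtering, 8569 cells remained, 1936 to 2749 per library, with median depths of 7618 to 8788 UMIs per cell. Library S4 held most cells of 4 of the 20 clusters (2, 6, 7 and 12), and 1103 melanoma-like cells remained after the CD45 selection. Levels are given as CPM, UMI counts scaled to equal totals. Adar stood at 8.81, 12.1, 10.9 and 13.1 CPM in the melanoma-like cells of S1 to S4, so the genotypes overlapped. A 3′ count need not fall in the altered part of the gene and does not check the labels. Cell types are whole clusters named from marker genes, and are called by a type name ending in "-like". Direct marker gates, an alternative given where named, picked single cells by their UMIs of marker genes instead. Levels between cell types are a description without a test.

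Cxcr6 (ENSMUSG00000048521) lies on the plus strand of chromosome 9 of GRCm38, at positions 123806475 to 123811760, inside the gene Fyco1 on the opposite strand. In the GENCODE annotation its first exon spans 71 bases and its second, which ends at 123811756, spans 1826 bases. The sequence before this start is shown because the receptor's messenger RNA was nearly restricted to lymphocytes here. It covers chr9:123806227-123806474 on the plus strand and is credited to RefSeq, build GRCm38.p6. Capitals mark the only match to the letters ACCACA, the core bound by Runx factors.
Cxcr6: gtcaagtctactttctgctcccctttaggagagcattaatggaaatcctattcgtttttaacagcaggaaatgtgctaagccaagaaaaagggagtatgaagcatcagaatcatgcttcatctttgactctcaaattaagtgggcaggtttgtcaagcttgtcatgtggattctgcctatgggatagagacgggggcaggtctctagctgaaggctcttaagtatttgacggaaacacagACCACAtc
The match begins 8 bases before the annotated start. ACCACA, or TGTGGT on the other strand, occurred in 4588 of 32851 windows of this length before gene starts (14.0%). The T-box letters TCACAC (12.2% of windows) and the AP-1 letters TGANTCA (6.73%) were not in this window on either strand. A match describes letters only.

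Cxcl16 (ENSMUSG00000018920) lies on the minus strand of chromosome 11, at positions 70453983 to 70459984, and has 5 exons in the annotation. Its 5′ end shares 552 bases with Zmynd15 on the opposite strand. The neighbouring gene Arrb2, encoding beta-arrestin 2, lies at 70432635 to 70440828.

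Cxcl16 messenger RNA was highest in the migratory dendritic cell-like cluster (cluster 15), whose cells carry the markers of mature dendritic cells that move to lymph nodes. Its CPM was 1105, 986, 1380 and 1278 in S1 to S4, or 1187 ± 176 (SD, n = 4). The exact Poisson 95% intervals, which cover counting error only, ran from 989 to 1232 in S1 and from 1217 to 1560 in S3. Cluster 5, monocyte- or macrophage-like cells led by Ccl12, Ccl7 and Ms4a4c, came next at 676, 652, 580 and 747 CPM (664 ± 69.2). These clusters ranked first and second in each of the 4 libraries among the 15 clusters with at least 10 cells in every library, so their order was the same in tumours of both genotypes.

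The macrophage-like clusters did not share a single level. Cluster 1, led by Vcam1, Lpl and C1qc, a complement component of tissue macrophages, stood at 576, 383, 432 and 592 CPM (496 ± 104). Cluster 2, led by Cxcl3, Mmp12, Arg1 and Spp1, was at 376, 516, 444 and 369 CPM (426 ± 68.5). Cluster 1 exceeded cluster 2 in only 2 of 4 libraries, so these neighbours overlapped. Cluster 7, led by Pf4, Apoe and Retnla, was lower at 170, 186, 167 and 346 CPM (217 ± 86.1), and its highest value was that of S4, which gave 365 of its 510 cells. Cluster 9, led by Cd300e and Lipg, had 425, 319, 259 and 163 CPM, with 9 of its 243 cells in S4. Cluster 6, led by Cd209f, stayed unnamed though its best marker list was that of macrophages. It was lower still, at 66.5, 83.4, 116 and 169 CPM. The monocyte-like cells of cluster 4, led by Il1b, Chil3 and Hp, stood at 385, 458, 342 and 195 CPM (345 ± 111). Here S4 was the lowest library.

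Among the other dendritic cells, type 2 conventional cells, which present antigen mainly to CD4 T cells, had 347, 323, 319 and 442 CPM (358 ± 57.7). Type 1 conventional cells, which cross-present antigen to CD8 T cells, had 180, 158, 208 and 252 CPM (199 ± 40.5). The migratory cluster was above both in every library. CD8 T cell-like cells had 15.9 ± 5.28 CPM, and melanoma-like cells had 5.70 ± 1.14 CPM (SD, n = 4 for both). Regulatory T cell-like cells, a cluster that also held myeloid RNA, had 102, 181, 114 and 157 CPM. The fibroblast-like cells, 62 in all, carried 273, 294, 190 and 77.7 CPM.

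Most Cxcl16 UMIs came from the abundant myeloid cells. Of the 21023 Cxcl16 UMIs in all kept cells, 82.3% came from monocyte- or macrophage-like cells, and this share was 82.8%, 83.7%, 83.3% and 80.4% in S1 to S4. The clusters inside that class contributed unevenly: cluster 5 gave 32.6% of the UMIs in S2 and 8.87% in S4, while cluster 7 gave 0.36% in S2 and 14.7% in S4. The migratory dendritic cell-like cluster, highest per cell, supplied 4.50% and the CD8 T cell-like cells 0.87%.

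**Figure D1:**
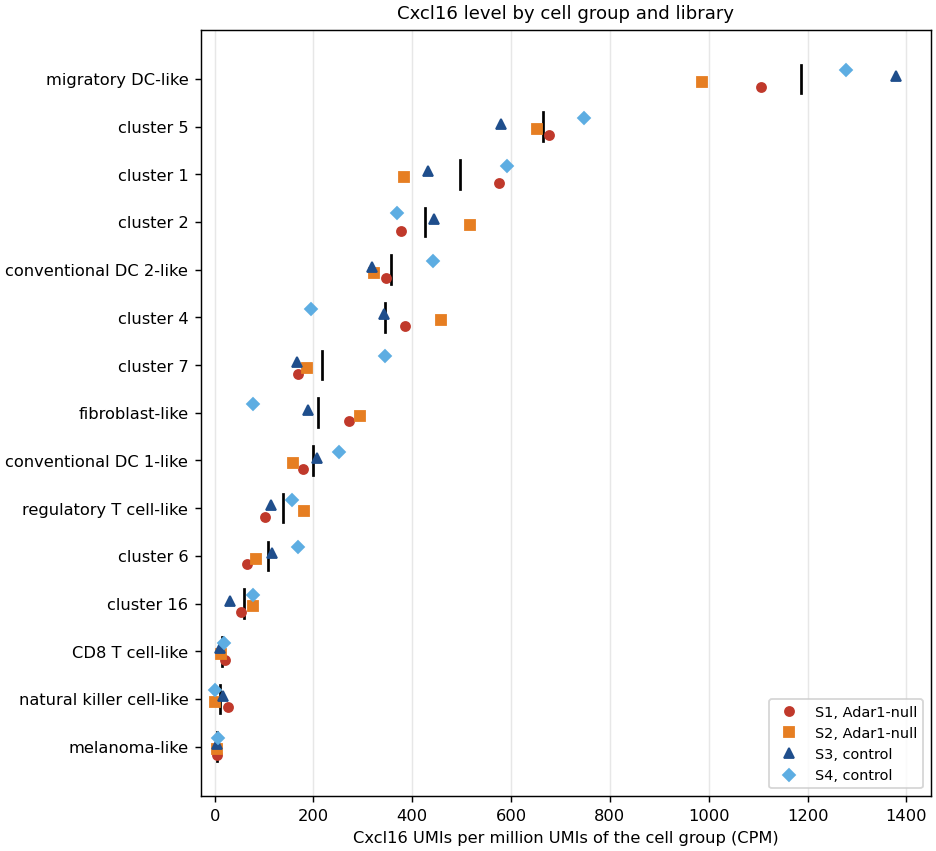
Cxcl16 level in CPM in chosen cell types and clusters, with 1 symbol per library (S1 and S2 Adar1-null, S3 and S4 control) and a bar at the mean of the 4 libraries. The migratory dendritic cell-like cluster lies at the top, between 986 and 1380 CPM, and the melanoma-like cells near the bottom, at a mean of 5.70 CPM.

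The share of cells with a Cxcl16 UMI followed a like order once every cell was thinned to 3900 UMIs, a depth every kept cell reached. It was 94.8% in the migratory dendritic cell-like cluster (109 of 115 cells, exact binomial 95% interval 89.0% to 98.1%), and 65.6% in monocyte- or macrophage-like cells (2898 of 4415). CD8 T cell-like cells, where the gene is taken as absent, gave 4.06% (45 of 1109), and melanoma-like cells 1.99%, shares read here as background. Without thinning, these shares were 98.3%, 78.4%, 8.93% and 16.8%. The median depths were 6544 UMIs in the migratory cluster, 5384 to 10691 in the myeloid clusters, 8702 in the main CD8 cluster and 33014 in melanoma-like cells. The share in cluster 5 was 82.0%, in cluster 1 78.0%, in cluster 2 61.8% and in monocyte-like cells 49.1%. A single cell held at most 29 Cxcl16 UMIs as deposited.

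Cxcr6 messenger RNA was concentrated in CD8 T cell-like cells, at 362, 329, 429 and 298 CPM in S1 to S4 (355 ± 56.4, SD, n = 4). Both CD8 clusters carried it. Cluster 3, the larger one, had 359, 328, 417 and 328 CPM, and cluster 12, led by the granzyme genes Gzmf and Gzmd, had 414, 357, 479 and 251 CPM. The clusters overlapped, and the lowest value of cluster 12 was again that of S4, which gave 86 of its 146 cells.

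Regulatory T cell-like cells, named from markers of suppressive CD4 T cells, had 103, 97.8, 109 and 186 CPM (124 ± 41.7). NK cell-like cells had 49.7, 78.6, 24.2 and 24.2 CPM (44.2 ± 25.9). The order CD8 cluster 3, regulatory T cell-like, NK cell-like held in all 4 libraries for the whole clusters. The regulatory T cell-like cluster also held myeloid RNA. Its macrophage markers, none of the 9 at 0, summed to 868, 1095, 470 and 993 CPM, against 184 to 246 in CD8 T cell-like cells. In its 105 cells with no UMI of 7 myeloid markers Cxcr6 was 178, 60.5, 108 and 206 CPM (138 ± 66.3), while Cxcl16 went from 139 ± 37.2 CPM in the whole cluster to 53.9 CPM on average. The 60.5 CPM of S2 in these cells was under the 78.6 CPM of its NK cell-like cells, so the order did not hold there.

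Monocyte- or macrophage-like and melanoma-like cells carried almost no receptor RNA. Monocyte- or macrophage-like cells had 45 Cxcr6 UMIs in 4415 cells, or 1.68, 1.53, 1.09 and 0.72 CPM. Type 1 conventional dendritic cell-like cells had 13.8, 0, 9.46 and 16.3 CPM. The migratory dendritic cell-like cluster, highest for the ligand, had 3.38, 55.4, 21.5 and 0 CPM, and its 7 T cell markers, none at 0, summed to 71.0, 750, 521 and 69.7 CPM. The part of these T cell transcripts in the receptor value was not tested. In plasmacytoid dendritic cell-like cells 10 UMIs came from 1 cell of S1. Of all 4464 Cxcr6 UMIs, 90.9% were in CD8 T cell-like cells (89.0%, 89.6%, 92.8% and 92.2% in S1 to S4), 4.97% in regulatory T cell-like, 1.14% in NK cell-like and 1.01% in monocyte- or macrophage-like cells.

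**Figure D2:**
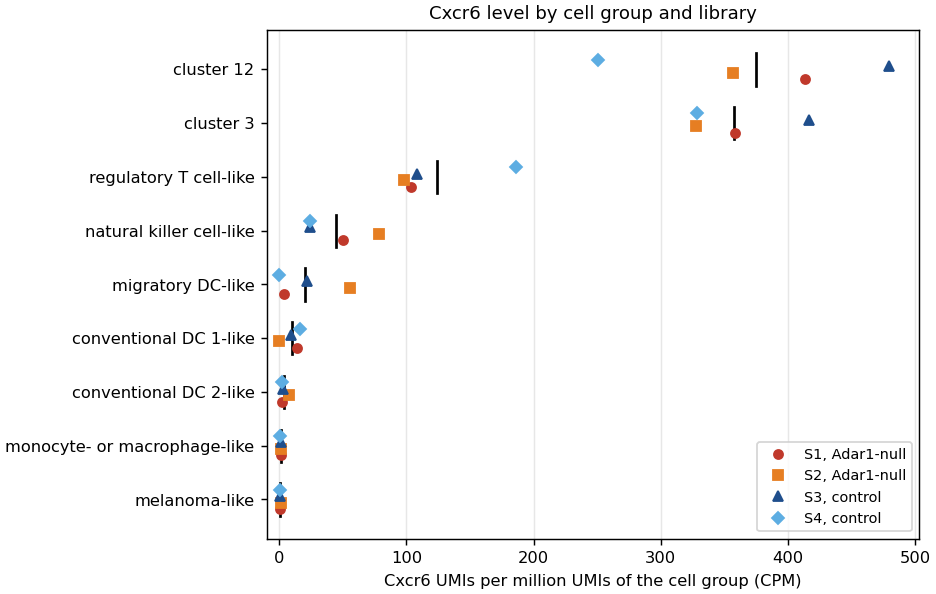
Cxcr6 level in CPM in chosen cell types and clusters, with 1 symbol per library and a bar at the mean of the 4 libraries. Of the CD8 T cell-like clusters, cluster 3 lies between 328 and 417 CPM and cluster 12 between 251 and 479. Regulatory T cell-like cells lie between 97.8 and 186, and monocyte- or macrophage-like cells between 0.72 and 1.68.

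At 3900 UMIs per cell, 66.8% of CD8 T cell-like cells had a Cxcr6 UMI (741 of 1109, exact binomial 95% interval 64.0% to 69.6%), and 86.1% did as deposited. The share was nearly the same in cluster 3 (67.3%) and cluster 12 (63.7%). It was 29.6% in regulatory T cell-like and 10.3% in NK cell-like cells. The background share was 0.34% in monocyte- or macrophage-like cells (15 of 4415) and 0.27% in melanoma-like cells, at the same thinned depth. The receptor share in regulatory T and NK cell-like cells was thus above the share in cells that should lack it. The highest count in a cell was 25 UMIs as deposited.

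Likeness across the 15 clusters was measured by Pearson's r of the mean log2(CPM + 10), over 5099 genes, as a description without a test. Clusters of the same libraries share depth and free RNA. Cxcl16 was most like Rasa4 (r = 0.96, and 0.80 to 0.96 in single libraries), Cd40 (0.95, 0.88 to 0.95), Rhog (0.93), Rnf19b (0.93) and Ebi3 (0.93). Cd40 encodes the receptor by which T cells license antigen-presenting cells, and Ebi3 encodes a subunit of the cytokines IL-27 and IL-35. Cxcr6 was most like Camk4 (r = 0.99, and 0.94 to 0.97 in single libraries), Cd3e (0.99), Cd8b1 (0.99), Tox (0.99) and Ubash3a (0.98). Cd3e and Cd8b1 encode parts of the T cell receptor complex and its CD8 co-receptor, and Tox a nuclear factor of chronically stimulated T cells.

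The first comparison across samples asked whether ligand or receptor differed between Adar1-null and control tumours. UMIs were summed per library and cell type and tested with edgeR's quasi-likelihood test, adjusted by the Benjamini-Hochberg method over all genes tested. In neither gene did any cell type pass an adjusted p of 0.05. In all kept cells together Cxcl16 was at 198, 189, 204 and 208 CPM, a log2 change (Adar1-null over control) of -0.15 ± 0.08 (SE, adjusted p = 0.574). Both Adar1-null libraries lay under both controls, as did 14.5% of genes tested. Cxcr6 was at 45.3, 54.0, 47.3 and 28.9 CPM, a log2 change of 0.32 ± 0.27 (adjusted p = 0.701), and the genotypes overlapped. Without S4 it was 0.018 and without S3 0.70. In such a sum over cell types, more cells of a type and more RNA per cell cannot be told apart. The test called 0.0% of genes there, with 1225 genes at an unadjusted p under 0.05, while DESeq2 called 6 higher and 87 lower.

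In monocyte- or macrophage-like cells the ligand stood at 496, 473, 427 and 435 CPM. The Adar1-null libraries were the 2 higher ones, a pattern seen in 16.8% of genes, and the log2 change was 0.15 ± 0.15 (adjusted p = 0.971). The test called 0.0% of genes, with 378 at an unadjusted p under 0.05, and DESeq2 called 1 higher and 2 lower. This class joins clusters of unlike Cxcl16 level. S4 gave 365 of the 510 cells of the lower cluster 7 and 88 of the 805 of the higher cluster 5. The part of this makeup in the difference was not tested. In macrophage-like cells alone the genotypes overlapped, at 470, 377, 396 and 435 CPM. Of the subsets tested inside the class, the monocyte-like cells had the largest difference. Their 385 and 458 CPM in Adar1-null tumours were above the 342 and 195 CPM in controls, a log2 change of 0.63 ± 0.24 (unadjusted p = 0.0215, adjusted p = 0.895). In this class 17.4% of genes separated this way and 0.0147% were called. The value rested on S4: without S4 the log2 change was 0.31 (adjusted p = 0.999), and without S3 it was 1.07 (adjusted p = 5.49e-05). Beside it, the 7 monocyte markers summed to 8091, 10111, 7456 and 8214 CPM and the 9 macrophage markers to 4009, 3896, 4320 and 3536 CPM, with none at 0 and S4 lowest for the latter. Their part in the difference was not tested.

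In the migratory dendritic cell-like cluster the direction was the other one, with 1105 and 986 CPM in Adar1-null against 1380 and 1278 CPM in control tumours. The log2 change was -0.36 ± 0.23 (adjusted p = 0.977), 16.4% of genes separated this way, and 0.0% were called, with 126 at an unadjusted p under 0.05 and none called by DESeq2. Type 1 conventional dendritic cell-like cells likewise had 180 and 158 against 208 and 252 CPM, a log2 change of -0.56 ± 0.24 (unadjusted p = 0.0368, adjusted p = 0.754). There 13.3% of genes separated this way and 0.0% were called, with 246 at an unadjusted p under 0.05 and none called by DESeq2. Markers of other cells separated the genotypes in this cluster too: the 9 macrophage markers summed to 200.4, 124, 376 and 331 CPM and the 7 monocyte markers to 1665, 2101, 917 and 939 CPM, with none at 0. Their part in the difference was not tested. These clusters held 20 to 49 cells per library. In type 2 conventional dendritic cell-like cells the libraries overlapped, with a log2 change of -0.25 ± 0.22. Clusters 1, 2 and 5 had log2 changes of -0.08, 0.10 and 0.02, with 0.0%, 0.0% and 0.0126% of genes called. Melanoma-like cells had -0.39, with 0.0801% of genes called. The change in the migratory cluster less that in monocyte-like cells was -0.96 ± 0.25 (adjusted p = 0.324, with 0.0598% of genes called), and that in type 1 conventional cells less that in monocyte-like cells was -1.27 ± 0.36 (adjusted p = 0.602, with 0.0144% called). Both differences were computed after the values had been seen, with the library as a block.

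Cxcr6 in CD8 T cell-like cells was 362 and 329 CPM in Adar1-null and 429 and 298 CPM in control tumours. The control libraries enclosed the Adar1-null ones, and the log2 change was -0.11 ± 0.16 (adjusted p = 0.969, with 0.0554% of genes called). In regulatory T cell-like cells the values were 103 and 97.8 against 109 and 186 CPM, a log2 change of -0.54 ± 0.26 (adjusted p = 0.942), which was -0.16 without S4 and -0.91 without S3. There 15.2% of genes separated this way, and 0.0% were called, with 284 at an unadjusted p under 0.05 and none called by DESeq2. The separation was not seen with direct marker gates, at 93.3 and 62.4 against 74.5 and 186 CPM. In the regulatory T cell-like cells without a myeloid marker UMI, given above, the genotypes overlapped too. The change in regulatory T less that in CD8 T cell-like cells was -0.39 ± 0.31 (adjusted p = 1, with 0.044% of genes called, library as a block). Without S3 it was -1.01 (adjusted p = 0.0328) and without S4 it was 0.21, so its direction depended on which control library was kept.

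**Figure D3:**
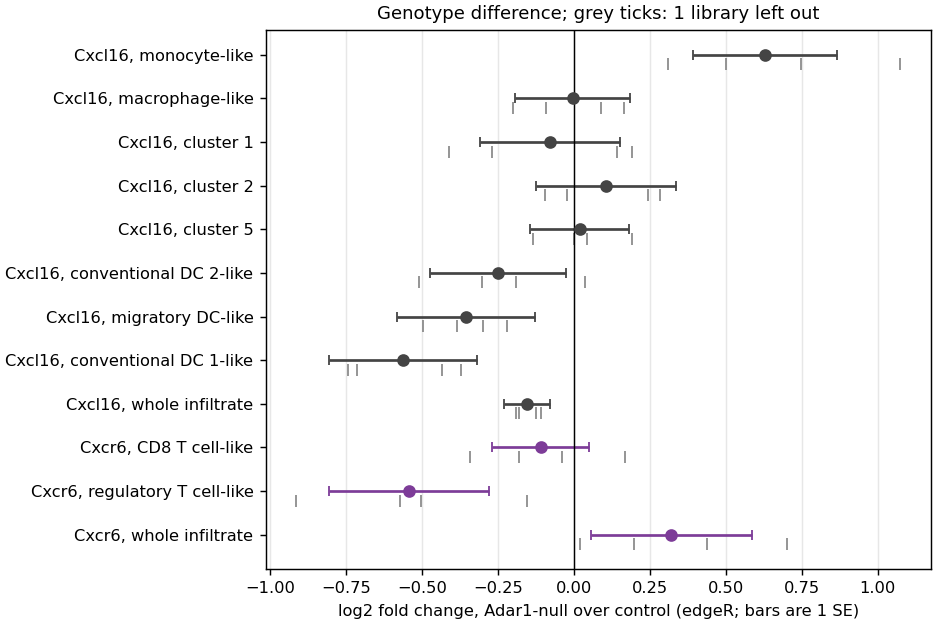
Log2 change of Cxcl16 and Cxcr6 (Adar1-null over control) per cell type from edgeR, with dots for the estimate, bars for 1 SE and grey ticks for the estimate with 1 library left out. No estimate passed an adjusted p of 0.05 with all 4 libraries, and the ticks of the Cxcl16 value in monocyte-like cells spread from 0.31 to 1.07.

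Shares of cells with a UMI at 3900 UMIs were compared in the same way. Cxcl16 was detected in 68.2% and 65.7% of monocyte- or macrophage-like cells of S1 and S2 and in 65.4% and 64.0% of those of S3 and S4. Cxcr6 was detected in 68.7% and 66.3% of CD8 T cell-like cells of S1 and S2 and in 69.0% and 63.4% of those of S3 and S4. In smaller classes the shares lay further apart. Cxcl16 was detected in 51.1% and 57.6% of monocyte-like cells of S1 and S2 and in 49.7% and 30.8% of those of S3 and S4. Cxcr6 was detected in 26.4% and 26.5% of regulatory T cell-like cells of S1 and S2 and in 31.0% and 44.8% of those of S3 and S4. In NK cell-like cells the Cxcr6 shares were 18.5%, 12.3%, 5.36% and 6.25%, from 16 to 57 cells per library. In these 3 cases the genotypes did not overlap, nor did they for Cxcl16 in monocyte- or macrophage-like cells. Such separation was not particular to these classes. Among all kept cells the groups also separated, with mean Cxcl16 shares of 40.6% (Adar1-null) and 43.8% (control). For Cxcr6 these means were 12.5% and 8.30%. Cxcl16 shares in clusters 7, 9 and 14 separated too, while those in macrophage-like and migratory dendritic cell-like cells overlapped. The share of all genes that separated this way was not computed. As deposited, the libraries overlapped for Cxcl16 in monocyte-like cells (group means 60.7% and 50.7%) and in monocyte- or macrophage-like cells. With direct marker gates at 3900 UMIs they overlapped for Cxcr6 in regulatory T cell-like cells (26.3% and 28.8%). With 2 libraries per group an exact two-sided permutation test cannot go below p = 0.33.

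The genes around the pair were described from lists of the pathway. In monocyte- or macrophage-like cells, none of the tested members differed by genotype among genes of ligand processing (0 of 4), inducers of the ligand (0 of 10), scavenger receptors (0 of 6), the survival niche (0 of 6) and other myeloid chemokines (0 of 7). These counts carry little, since the test called 0.0% of all 10784 genes in this class. Adam17, the inducible sheddase, was at 58.6, 47.8, 56.0 and 44.9 CPM, and Adam10, the constitutive one, at 43.4, 31.1, 37.4 and 44.9 CPM, and both overlapped between genotypes. Cxcl10, a chemokine for the receptor CXCR3, was at 624, 1102, 537 and 323 CPM (log2 change 0.99 ± 0.36, adjusted p = 0.971). In CD8 T cell-like cells none differed among the residency (0 of 8), circulation and memory (0 of 7), G protein signalling (0 of 9), survival niche (0 of 6) and other chemokine receptor lists (0 of 6), where the test called 0.0554% of all genes. Of the other myeloid chemokines 1 of 6 tested was higher, Cxcl10, at 33.3, 34.6, 11.2 and 10.3 CPM in CD8 T cell-like cells (log2 change 1.62 ± 0.20, adjusted p = 0.0124). The part of the myeloid Cxcl10 level in it was not tested.

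The second kind of comparison used cells of 1 type in the same library: cells with against cells without a UMI of the member at 3900 UMIs. UMIs of each side were summed per library, and the test held the library as a block, so 4 pairs of sums were compared. A cell without a UMI may still express the gene at this depth. In CD8 T cell-like cells this set 195, 216, 169 and 161 Cxcr6-positive cells against 89, 110, 76 and 93 others. Of 5699 genes tested, 199 were higher (3.49%) and 137 lower (2.4%) in the cells with Cxcr6.

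The 12 higher genes with the smallest p included parts of the T cell receptor complex and of CD8 and genes known from cytotoxic lymphocytes. Cd3g, a chain of the T cell receptor complex, was at 1967, 2255, 2687 and 2209 CPM with Cxcr6 and at 1507, 1585, 1727 and 1442 CPM without. It rose in 4 of 4 libraries, with a log2 change of 0.57 ± 0.05 (adjusted p = 2.0e-17). Cd8b1, a chain of CD8, rose by 0.52 ± 0.07 on the log2 scale. The granule gene Nkg7 rose by 0.42 ± 0.04, and Klrd1, encoding the NK receptor CD94, by 0.63 ± 0.07. B2m, the shared light chain of MHC class I, rose by 0.38 ± 0.04. The remaining higher genes chosen by p were Cd52, S100a6, Fxyd5, Plac8, Ctla2a, Gimap4 and Coro1a, with log2 changes from 0.42 to 0.80.

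Xcl1 had the smallest p of the lower genes and encodes a chemokine that attracts type 1 conventional dendritic cells. It was at 195, 51.0, 37.9 and 28.7 CPM with Cxcr6 and at 1345, 576, 358 and 182 CPM without, a log2 change of -2.99 ± 0.11 (adjusted p = 1.8e-50). Each library showed the fall, and S1 was the highest on both sides. With UMIs as deposited, the log2 change was -2.15 and was no longer called (adjusted p = 0.38). The other 7 lower genes chosen by p are widely expressed genes. Npm1, a nucleolar chaperone, fell by 0.46 ± 0.05 on the log2 scale, Eif5a, a translation factor, by 0.45 ± 0.06, and Odc1, the first enzyme of polyamine synthesis, by 0.60 ± 0.08. Cdk4, a kinase of the G1 phase, fell by 0.72 ± 0.11, and Hsp90ab1, Ptma and C1qbp fell by 0.32, 0.27 and 0.68. With UMIs as deposited, Ptma, Cdk4 and C1qbp were no longer called. Deposited depth moved with the split on thinned UMIs. There the cells without Cxcr6 had median depths of 9605 to 12781 UMIs, against 7481 to 8662 in those with it. The fit with UMIs as deposited split the cells anew. It left 39, 51, 23 and 41 cells without Cxcr6 in S1 to S4. Their median depths were 7860, 8820, 8597 and 11760 UMIs, against 7978, 9170, 9397 and 9627 in those with it. In the split on thinned UMIs, cluster 12 made up 12.6% of cells with and 14.4% of cells without Cxcr6. All 20 named genes were called in cluster 3 alone. The part of depth in these differences was not tested beyond the thinning.

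Of 8 genes of T cell circulation and memory 5 were tested, and 2 of these fell. Tcf7, the factor of naive and stem-like memory T cells, was at 3.95, 1.19, 1.52 and 4.78 CPM with Cxcr6 and at 40.3, 16.3, 27.0 and 8.27 CPM without (log2 change -2.91 ± 0.63, adjusted p = 0.0005). These Tcf7 values stand for few UMIs, and the fall was smallest in S4. Ccr7, the lymph node homing receptor, fell by 1.66 ± 0.33 on the log2 scale (42.1, 8.31, 12.1 and 28.7 against 46.1, 62.9, 70.9 and 116 CPM, adjusted p = 0.0036). No member was higher, and Klf2, Il7r and Cx3cr1 were not called (log2 changes 0.15, 0.07 and 0.48). Beside them, 2.4% of all genes tested were lower. The list's median was 0.07, against 0.00 for all genes.

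Of the 11 residency genes 8 were tested, 2 were higher and 1 lower, and their median log2 change was 0.27. Of all genes 3.49% were higher and 2.4% lower, and the same shares stand beside the next lists. The inhibitory receptor gene Pdcd1 rose by 0.49 ± 0.10 and Rgs1, a brake on G protein signalling, by 0.48 ± 0.11, while Xcl1 fell. Cd69, Gzmb, Runx3, Prdm1 and Bhlhe40 were not called, with log2 changes of 0.04, 0.07, 0.44, 0.54 and 0.10. Itgae, Itga1 and Zfp683, the more specific residency markers, were too low to test, each at or under 10.6 CPM in either side of every library.

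In the G protein signalling list, 2 of 9 genes were higher, Rgs1 and Rgs2, and Gnai2, the inhibitory G protein that CXCR6 uses, had a log2 change of 0.13 ± 0.07 and was not called. Of the survival niche genes, 6 of 8 were tested and Il2rb, the chain shared by the IL-2 and IL-15 receptors, rose by 0.37 ± 0.10, while Cd27 and Il2rg were not called. Of 9 other chemokine receptors 4 were tested, 1 higher and 1 lower, the latter Ccr7. Ccr2, which binds monocyte chemoattractants and lies near Cxcr6 on chromosome 9, was at 44.7, 55.8, 53.1 and 57.3 CPM with and at 2.88, 39.6, 23.6 and 38.6 CPM without Cxcr6. Its log2 change was 1.01 ± 0.26 (adjusted p = 0.0067). Monocyte markers, none of the 7 at 0, summed to 1661, 2729, 1886 and 2483 CPM with and to 1308, 1690, 1150.5 and 1784 CPM without Cxcr6. The 8 migratory dendritic cell markers, with Apol7c at 0, summed to 104, 80.7, 85.0 and 84.4 CPM with and to 179, 163, 169 and 232 CPM without it. Ccr2 and Plac8 are themselves among the 7 monocyte markers, and Ccr7 is among the 8 migratory dendritic cell markers. Each sum thus contains the genes it stands beside. The part of RNA from other cells in the values of Ccr2, Plac8 and Ccr7 was not tested. Cxcr3 was too low to test. Fyco1, the gene that encloses Cxcr6 on the opposite strand, was also too low to test, at 7.89 to 17.5 CPM with and 8.64 to 20.2 CPM without it.

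**Figure D4:**
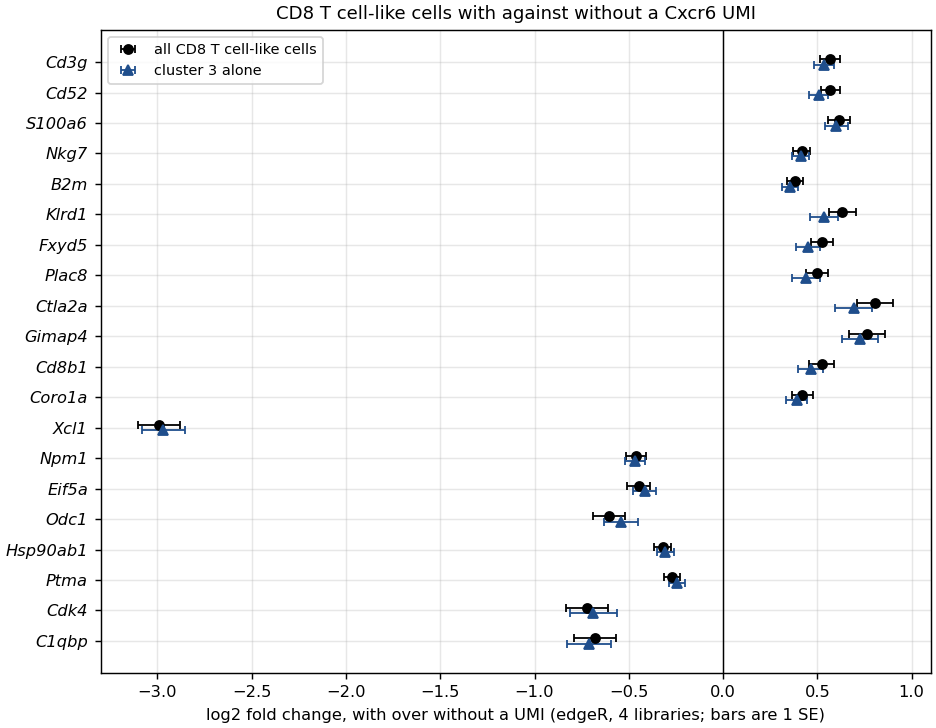
Log2 change (with over without a Cxcr6 UMI, at 3900 UMIs per cell) of the 12 higher and 8 lower genes with the smallest p in CD8 T cell-like cells, as dots with bars of 1 SE, for all cells (black) and cluster 3 alone (blue). Xcl1 lies at -2.99 over all cells, and the higher genes lie between 0.38 and 0.80.

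In monocyte- or macrophage-like cells 653, 658, 666 and 921 cells with a Cxcl16 UMI were set against 304, 343, 353 and 517 without. Of 9131 genes tested, 209 were higher (2.29%) and 257 lower (2.81%). The 12 higher genes with the smallest p included 4 that serve antigen presentation by MHC class II. H2-Eb1, a class II chain, was at 2993, 3832, 3257 and 1194 CPM with and at 1775, 2013, 1828 and 614 CPM without Cxcl16, a log2 change of 0.88 ± 0.05 (adjusted p = 1.8e-12). S4 was lowest on both sides, and the rise was present in all 4 libraries. H2-Ab1 and H2-Aa rose by 0.81 and 0.80, and Cd74, the class II chaperone, by 0.62.

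The 12 also held Cxcl9, an interferon-induced chemokine that attracts T cells through CXCR3. It was at 786, 1030, 775 and 235 CPM with and at 244, 454, 357 and 100.2 CPM without Cxcl16 (log2 change 1.31 ± 0.08). Iigp1, an interferon-inducible GTPase, rose by 0.84 ± 0.09, Ly6a by 0.55 ± 0.06, Il18bp, a decoy for IL-18, by 0.76 ± 0.09 and Ch25h, which makes 25-hydroxycholesterol, by 1.39 ± 0.15. Ccl8, AW112010 and Ptms also rose, by 0.57, 0.81 and 0.76. With UMIs as deposited Ccl8 and Ch25h were no longer called, and Ccl8 was not called with direct marker gates either.

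The lower gene with the smallest p was Hp, encoding haptoglobin, which is also a leading gene of the monocyte-like cluster 4. It was at 11.0, 30.8, 18.5 and 27.6 CPM with and at 91.1, 157, 121 and 183 CPM without Cxcl16 (log2 change -2.66 ± 0.12, adjusted p = 2.5e-15). Gsr, glutathione reductase, fell by 1.86 ± 0.09 on the log2 scale, Fn1, fibronectin, by 1.43 ± 0.09, and Dmkn by 2.40 ± 0.18. S100a4 and Lsp1, a cytoskeletal protein of leukocytes, had log2 changes of -1.01 ± 0.07 and -1.10 ± 0.07. The globin genes Hba-a1 and Hbb-bt were also lower, but nearly all their UMIs were in S4, and without S4 they could not be tested.

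The myeloid clusters were unequally split, and this is given beside the genes above. Cluster 1 held 27.6% of cells with and 14.9% of cells without Cxcl16, cluster 5 held 22.8% and 9.56%, and the monocyte-like cluster 4 held 14.4% and 28.5%. Monocyte markers summed to 2271, 4570, 2090 and 1470 CPM with and to 4502, 6922, 4163 and 3491 CPM without Cxcl16. Within clusters the higher genes were called less evenly: 9 of the 12 in cluster 4 alone, 8 of 11 tested in cluster 2, 5 of 12 in cluster 1 and 4 of 12 in cluster 5. H2-Eb1 had log2 changes of 1.39 in cluster 4, 0.81 in cluster 1 (adjusted p = 0.076) and 0.52 in cluster 5. Ccl8 had -0.06 in cluster 5. Hp and Gsr in cluster 4 alone fell by 1.95 and 1.96, so these genes were lower in cells with Cxcl16 inside the monocyte-like cluster too. Of the lower genes, 6 of 6 tested were called in cluster 4, 3 of 6 in cluster 2, 0 of 2 in cluster 1 and 0 of 4 in cluster 5.

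Beside the list counts that follow, 2.29% of all genes tested were higher and 2.81% lower. Among the ligand's processing genes, Adam17 was at 65.6, 54.2, 63.9 and 49.8 CPM with and at 43.9, 39.6, 42.1 and 38.2 CPM without Cxcl16. It rose in all 4 libraries (log2 change 0.51 ± 0.12, adjusted p = 0.0064), and was the 1 of 4 tested of 5 members to pass. Adam10 had a log2 change of -0.05 ± 0.13 and Rhbdf2, which carries ADAM17 to the surface, -0.04 ± 0.14. Of 10 inducers tested, 2 were higher and 2 lower. Ifngr2 rose by 0.30, and Ifngr1 and Tnfrsf1a fell by 0.48 and 0.25, while Irf1, Tnf, Nfkb1 and Rela were not called. The interferon-gamma receptor's chains thus moved in opposite directions. Of 7 scavenger receptors 6 were tested, with Cd68 higher (0.20) and Marco lower (-1.12), and Msr1 and Cd36 not called. Of 8 survival niche genes 4 were tested, and Il2rg was higher (0.37), while Il15, the cytokine presented to CD8 T cells, had -0.27 ± 0.14 and was not called.

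Of 9 other chemokines of myeloid cells 7 were tested, and Cxcl9, Ccl8 and Ccl5 were higher (2.29% of all genes were), the last by 0.95 ± 0.09. Cxcl10, which like Cxcl9 binds CXCR3, was at 655, 1354, 704 and 328 CPM with and at 560, 1327, 565 and 317 CPM without Cxcl16, a log2 change of 0.17 ± 0.06 that was not called (adjusted p = 0.15). Ccl3 and Ccl4 had -0.56 and -0.11 and were not called. Cells with the ligand were thus higher for 1 of the 2 CXCR3 chemokines by the test, while the difference between the 2 was not tested.

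**Figure D5:**
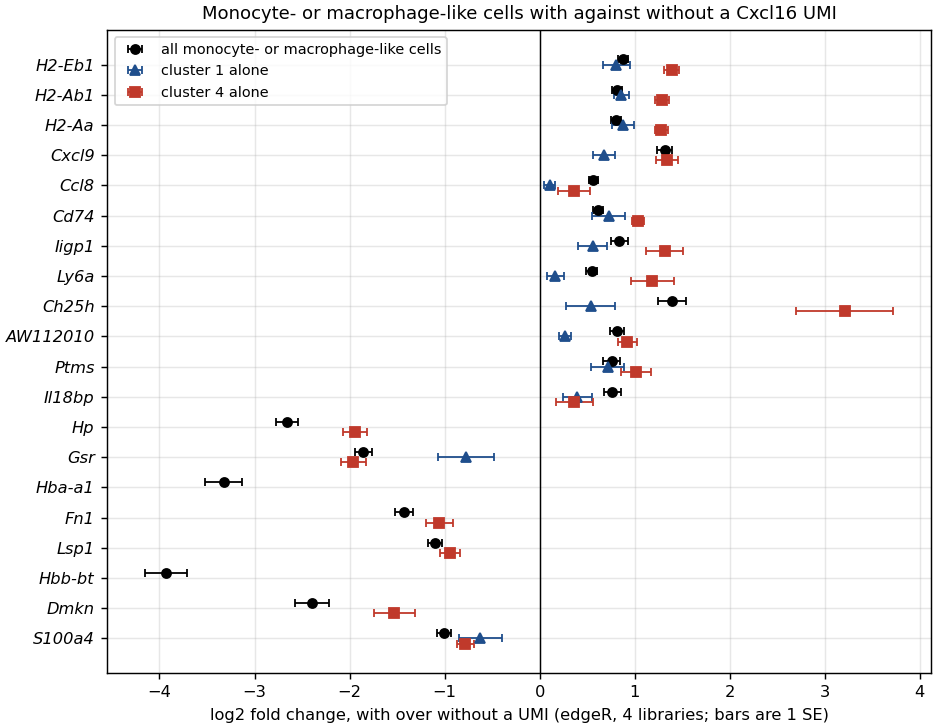
Log2 change (with over without a Cxcl16 UMI, at 3900 UMIs per cell) of the 12 higher and 8 lower genes with the smallest p in monocyte- or macrophage-like cells, as dots with bars of 1 SE, for all cells (black), cluster 1 alone (blue) and cluster 4 alone (red). H2-Eb1 and Cxcl9 lie at 0.88 and 1.31 over all cells, and Hp and Gsr lie at -2.66 and -1.86. Genes without a blue or red symbol could not be tested in that cluster.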

How the data were processed

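The authors deposited raw UMI counts, 1 whole number for each gene in each cell. Build mm10, Cell Ranger and Seurat 2.2.0 are named per the submitters' processing notes. The annotation and any earlier cell filter were not given in the sources used here. Barcodes carry library names that show the genotype. No barcode had under 3961 UMIs, and 38 barcode sequences occurred in more than 1 library.

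Of 8838 barcodes, 161 with under 500 genes or over 10% mitochondrial UMIs and 108 with a doublet score over 0.1 (Scrublet in scanpy 1.11.5, expected rate 0.02) were removed. Leiden clustering (leidenalg 0.10.2, resolution 1, 2000 variable genes, 30 components, 20 neighbours) left out both genes and gave 20 clusters, named where at least 3 markers were detected in at least 10% of cells and the leading genes did not go against the name. The minimum of 10% of cells with Flt3 for type 2 conventional dendritic cells was set after seeing the data.

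UMI sums per library and cell type (at least 20 cells each) were tested with edgeR 4.0.16 (R 4.3.3; TMM, default low-count filter, robust quasi-likelihood fit, Benjamini-Hochberg adjustment at 0.05). A script tested on simulated data ran all fits. Alternatives were DESeq2 1.42.0, limma 3.58.1, other scaling, filters, gates, cells and libraries. The members and lists were chosen with earlier results of these data known. Genes were named by smallest p (12 higher, 8 lower, without ribosomal, mitochondrial and unnamed gene models), list membership or likeness. Some results are not reported here.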

Additional observations from a re-analysis of the deposited data

Results flagged for a closer look

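The genotype difference of Cxcl16 was set against that in monocyte-like cells in a pair of dendritic cell classes. The log2 change in migratory dendritic cell-like cells less that in monocyte-like cells was -0.96 ± 0.25 (edgeR with the library as a block, unadjusted p = 0.000357, Benjamini-Hochberg adjusted p = 0.324 over 6686 genes). The log2 change in type 1 conventional dendritic cell-like cells less that in monocyte-like cells was -1.27 ± 0.36 (edgeR, unadjusted p = 0.00282, adjusted p = 0.602 over 6925 genes). Both comparisons were chosen after the values were seen to differ, so the unadjusted p supports nothing, and neither passed the adjustment. The test called 0.0598% and 0.0144% of genes. With 1 library left out, the first ran from -1.30 to -0.68 and the second from -1.86 to -0.64. Without S3 the adjusted p was 0.00693 and 0.000611, and without S4, the library with the lowest Cxcl16 in monocyte-like cells, it was 0.923 and 1.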

How the results depend on the processing

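No paired analysis was possible because the library names of the barcodes carry no replicate number. Each genotype had 2 libraries, and the migratory and type 1 dendritic cell-like classes had 20 to 49 cells per library. With 1 library left out a genotype arm has 1 library, assumed to vary like the others. Log2 changes of Cxcl16 ranged from 0.31 to 1.07 in monocyte-like (past the threshold without S3 only), -0.20 to 0.16 in macrophage-like, -0.51 to 0.035 in type 2 dendritic cell-like cells, and -0.41 to 0.19, -0.10 to 0.28 and -0.13 to 0.19 in clusters 1, 2 and 5. Those of Cxcr6 ranged from -0.34 to 0.17 in CD8 T cell-like cells and from -0.31 to 0.026 in cluster 3, from -0.91 to -0.16 in regulatory T cell-like cells and from 0.018 to 0.70 in all kept cells. The cell-type differences ranged from -1.01 to 0.21 for Cxcr6, and from -1.30 to -0.68 and -1.86 to -0.64 for Cxcl16. Cxcl16 in macrophage-like cells, at -0.01 in the main fit, was 0.025 with total-UMI scaling and 0.044 at resolution 2, and in cluster 2 -0.092 with equal cells per library. The cause was not tested.

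For genes that differed with Cxcr6 (199 higher, 137 lower), DESeq2 called 55 and 32, UMIs as deposited gave 86 lower, and leaving out a library gave 119 to 197 and 78 to 151. For Cxcl16 (209 and 257), DESeq2 called 73 and 96, UMIs as deposited 410 and 596, cluster 1 alone 24 and 9, cluster 2 alone 54 and 46, cluster 5 alone 9 and 13, and leaving out a library 115 to 259 and 161 to 359. Ccl8 was -0.057 in cluster 5 alone. Of 20 named genes per member, DESeq2 did not call the 2 globin genes.

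Shares with a UMI moved, as Adar1-null less control in percentage points. Cxcr6 in CD8 T cell-like cells was 1.28 thinned, -1.92 as deposited and -1.52 to 4.07 with 1 library left out. Cxcl16 in monocyte- or macrophage-like cells was 2.28, -0.69 as deposited, 5.99 with direct gates and 1.03 to 3.53. Cxcr6 in regulatory T cell-like cells was -11.4, -2.57 with direct gates and -18.4 to -4.50. The level of Cxcl16 was 424 CPM with unnamed clusters added (458 without), and in macrophage-like cells 486 CPM at resolution 2 (420 at resolution 1).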

Other observations

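Genes beside Cxcl16 on chromosome 11 were compared in the same split of monocyte- or macrophage-like cells. Zmynd15, which overlaps Cxcl16 on the opposite strand, was at 27.1, 19.5, 18.9 and 13.9 CPM in cells with a Cxcl16 UMI and at 5.06, 7.48, 2.18 and 2.98 CPM in cells without (log2 change 2.17 ± 0.27, edgeR with Benjamini-Hochberg adjustment, adjusted p = 2.4e-06). How the deposited counts assigned reads of the shared bases is not given in the sources used here, so the value is uncertain. Arrb2, encoding a scaffold that ends and redirects chemokine receptor signals, was at 133, 170.3, 153 and 131 CPM with and at 83.5, 123, 106 and 83.8 CPM without (log2 change 0.59 ± 0.08, adjusted p = 2.7e-05), and shares no bases with Cxcl16. The neighbours Med11 and Pelp1 had log2 changes of 0.17 and -0.06 and were not called.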
